A study of Mus musculus with 18 samples.

Results

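The oncofetal genes described here are 7 members of the Hmga, Igf2bp and Lin28 families: Hmga2, Hmga1, Igf2bp2, Igf2bp1, Igf2bp3, Lin28b and Lin28a. They are 7 of the 54532 genes in the count table, and all 7 were found by symbol. They are known targets or partners of the let-7 microRNAs, and they were selected on measured values, because Hmga2, Hmga1 and Igf2bp2 were higher in p95HER2 than in EV tumours. Their differences between these groups are therefore given as a description, without a test. The study sequenced mRNA of 18 tumours formed in mice by PB2, a mouse breast cancer cell line, 8 of genotype p95HER2 and 10 of genotype EV. p95HER2 is a fragment of the growth factor receptor HER2 that lacks most of the extracellular domain, and the labels do not spell out EV. All 18 tumours came from the same cell line, and all mice were on the doxycycline diet DOX625, so both groups share the drug. The labels are silent on the age and sex of the mice, on the promoter that drives p95HER2, and on whether each tumour came from its own mouse, so p-values reflect only how these samples vary, which may be technical.

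Hmga1 and Hmga2 encode small chromatin proteins that bind AT-rich DNA and bend it. Igf2bp1, Igf2bp2 and Igf2bp3 encode RNA-binding proteins that bind and stabilize target mRNAs, among them that of the growth factor Igf2. Lin28a and Lin28b encode RNA-binding proteins that block the maturation of let-7. The let-7 microRNAs accumulate as tissues differentiate, and they pair through their seed with sites in the 3′ untranslated regions (UTRs) of Hmga2, Lin28b and Igf2bp mRNAs and lower their output. Most of these genes are active in the embryo and quiet in adult tissue, and several return in tumours.

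RefSeq (GRCm38.p6) lists 11 mature mouse let-7 names, of which 10 share the seed GAGGUAG and let-7j has GAGGUAU. A set of them is shown because their seed defines the sites searched in the 7 genes. Capitals mark bases 2 to 8, the seed.
mmu-let-7a-5p: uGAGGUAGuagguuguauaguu
mmu-let-7c-5p: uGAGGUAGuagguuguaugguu
mmu-let-7g-5p: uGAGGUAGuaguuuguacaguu
mmu-let-7i-5p: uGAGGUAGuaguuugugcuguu
mmu-miR-98-5p: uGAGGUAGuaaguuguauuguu
mmu-let-7j: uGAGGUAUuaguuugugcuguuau

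A match to the shared seed was searched in the longest 3′ UTR annotated for each gene in GENCODE M21 (GRCm38, the same build as mm10). The 8mer was CTACCTCA and the 7mer CTACCTC, both on the sense strand, and every 8mer holds a 7mer. All 7 genes held at least 1 match of 7 bases, while 9.02% of 21022 annotated 3′ UTRs did. An 8mer was present in 3.06% of those UTRs and in 6 of the 7 genes, Hmga1 being the exception. The 7 genes were taken as let-7 regulated genes, so nothing is read from their counts against these shares. Their UTRs had 1183 to 6337 bases, beside a median of 960 over all annotated 3′ UTRs. Hmga2 had 4 matches in 3014 bases, 1 of them an 8mer, and Lin28b had 4 in 4445 bases, also with 1 8mer. Igf2bp1 had 4 matches in 6337 bases, 3 of them 8mers, and Lin28a had 2 in 2775 bases, both 8mers. Igf2bp2 had 1 8mer in 1784 bases, Igf2bp3 had 1 in 2119 bases, and Hmga1 had a single 7mer in 1183 bases. The stretches of 30 bases that end in each match are shown for Hmga2, Hmga1 and Igf2bp2, with the 8mer nearest the stop codon for the others. Positions count from 1 at the first base of the 3′ UTR, each stretch is written on the strand of its gene, and capitals mark the match.
Hmga2, 8mer at base 58, chr10:120364224-120364253: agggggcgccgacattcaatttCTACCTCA
Hmga2, 7mer at base 1295, chr10:120362987-120363016: caataatccccactcctcaataCTACCTCt
Hmga2, 7mer at base 1733, chr10:120362549-120362578: ggacttcctgatttgcaaggaaCTACCTCc
Hmga2, 7mer at base 2591, chr10:120361691-120361720: gttgtacaatcaaaacacactaCTACCTCt
Hmga1, 7mer at base 801, chr17:27563270-27563299: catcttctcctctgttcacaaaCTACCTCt
Igf2bp2, 8mer at base 1313, chr16:22059473-22059502: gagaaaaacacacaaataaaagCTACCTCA
Lin28b, 8mer at base 36, chr10:45381022-45381051: tcccttcacccgggcgggaagtCTACCTCA
Igf2bp1, 8mer at base 1715, chr11:95961778-95961807: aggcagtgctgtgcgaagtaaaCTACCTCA
Igf2bp3, 8mer at base 548, chr6:49086787-49086816: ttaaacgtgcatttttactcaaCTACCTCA
Lin28a, 8mer at base 909, chr4:134005189-134005218: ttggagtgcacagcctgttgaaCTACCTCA

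Small RNA was not measured, so the level of mature let-7 is not known in these tumours. The 12 let-7 hairpin genes in the table had 14 counts over the p95HER2 tumours and 18 over the EV tumours, and 6 of them had none. A match is a description of these letters and not evidence of regulation.

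The libraries held 32686558 to 34804640 counts in p95HER2 tumours and 35030920 to 38464541 in EV tumours, without overlap between the groups. Levels are given in CPM, read counts relative to library size after TMM scaling. A gene was tested with edgeR's quasi-likelihood test if it passed a filter on low counts, and it was called at a Benjamini-Hochberg (BH) adjusted p under 0.05. Of 17123 genes tested, 5.73% were called higher and 4.45% lower in p95HER2 tumours, and in 0.677% every p95HER2 tumour lay above every EV tumour. Erbb2, the gene of HER2, had 121.7 to 230.9 CPM in p95HER2 tumours and 60.3 to 74.8 CPM in EV tumours, so the groups did not overlap. These reads were counted on the mouse gene, where its own mRNA and any reads from p95HER2 cannot be told apart. The Erbb2 level is therefore not a measure of p95HER2 alone. Of the 7 oncofetal genes, 4 passed the filter (Hmga2, Hmga1, Igf2bp2 and Lin28b). In 3 of these, Hmga2, Hmga1 and Igf2bp2, the groups did not overlap, which follows from how they were chosen, and nothing is read from that count against the share of 0.677%.

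**Figure D1:**
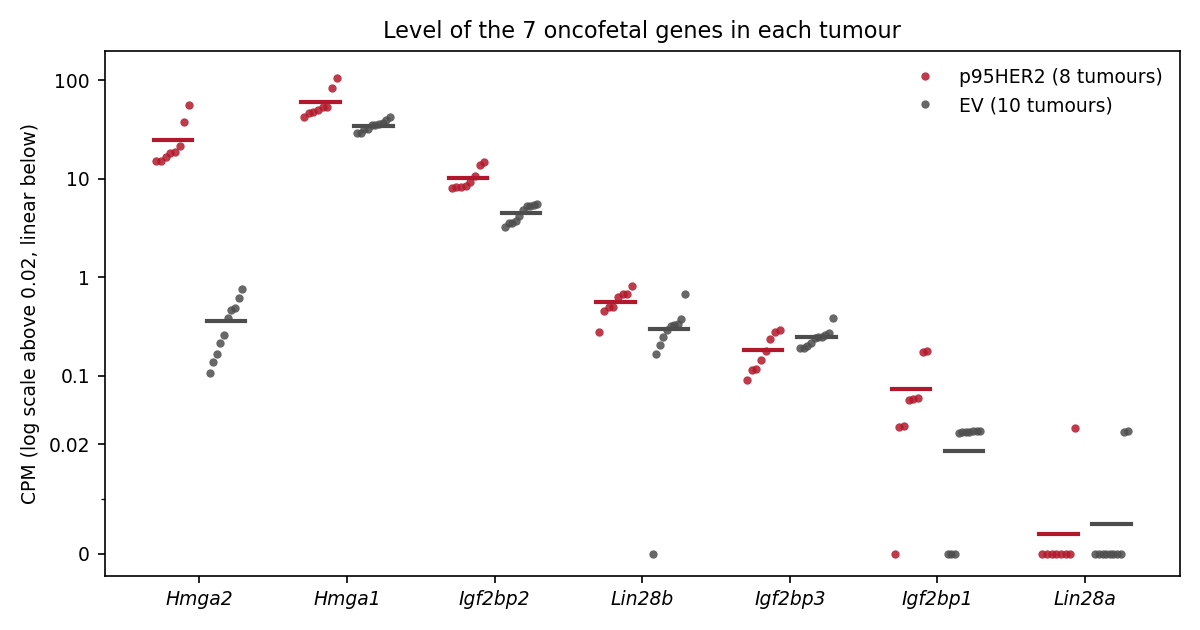
Level of each oncofetal gene in CPM (log scale above 0.02, linear below) in the 8 p95HER2 tumours (red, left of each pair) and the 10 EV tumours (grey, right); points are tumours and lines are means. Hmga2 lies between 15.1 and 55.9 CPM in p95HER2 tumours and below 1 CPM in all EV tumours, while Igf2bp3, Igf2bp1 and Lin28a stay low in both groups.

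Hmga2 (ENSMUSG00000056758, chromosome 10, 120361275 to 120476469, minus strand, mm10) showed the widest separation of the 7. The p95HER2 tumours 1 to 8 had 523, 494, 737, 631, 645, 1866, 554 and 1302 counts, and the EV tumours 1 to 10 had 28, 17, 9, 4, 15, 6, 22, 18, 5 and 8 counts. The lowest p95HER2 tumour thus lay far above the highest EV tumour, and within the p95HER2 group tumours 6 and 8 stood above the other 6. In CPM Hmga2 averaged 25.0 ± 14.6 in p95HER2 tumours (SD, n = 8), with a median of 18.6, and 0.359 ± 0.220 in EV tumours (SD, n = 10), with a median of 0.323. The log2 fold change was 6.11 (SE 0.37), and the mean was 69.5-fold higher in p95HER2 tumours. Every EV library held Hmga2 reads, so the gene was scarce in EV tumours but not at 0.

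Hmga1 (ENSMUSG00000046711, chromosome 17, 27556497 to 27563674, plus strand) was the most abundant of the 7 and was well expressed in both groups. The p95HER2 tumours 1 to 8 had 42.8, 48.0, 53.8, 54.2, 47.0, 104.5, 49.8 and 82.9 CPM. The EV tumours ranged over 28.9 CPM at the lowest, 35.2 at the median and 42.4 at the highest. The groups did not overlap, but only just, since p95HER2 1 at 42.8 CPM lay next to EV 1 at 42.4 CPM. The means were 60.4 ± 21.7 CPM in p95HER2 (SD, n = 8) and 34.7 ± 4.28 CPM in EV tumours (SD, n = 10), a log2 fold change of 0.80 (SE 0.15). Hmga1b, a near copy of Hmga1 elsewhere in the mouse genome, had 83 counts over the p95HER2 tumours and 54 over the EV tumours. Reads that fit both genes are uncertain, and beside the 16326 and 12748 counts of Hmga1 in p95HER2 and EV tumours those of the copy were few.

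Igf2bp2 (ENSMUSG00000033581, chromosome 16, 22059009 to 22163299, minus strand) was the one Igf2bp gene with appreciable mRNA. The p95HER2 tumours 1 to 8 had 8.48, 10.7, 9.38, 8.31, 8.34, 13.8, 8.003 and 14.7 CPM. The EV tumours had 3.24 CPM at the lowest, 4.53 at the median and 5.53 at the highest, so all 8 p95HER2 tumours lay above all 10 EV tumours. The means were 10.2 ± 2.64 CPM in p95HER2 (SD, n = 8) and 4.48 ± 0.905 CPM in EV tumours (SD, n = 10), a log2 fold change of 1.19 (SE 0.15).

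The other Igf2bp genes were near the limit of detection and below the filter. Igf2bp3 (ENSMUSG00000029814, chromosome 6, 49085223 to 49214957, minus strand) had 3 to 10 counts per library in p95HER2 tumours and 7 to 14 in EV tumours. The sums were 49 counts in p95HER2 and 90 in EV tumours, a ratio per library total of 0.736 with a 95% exact counting interval of 0.509 to 1.05. Igf2bp1 (ENSMUSG00000013415, chromosome 11, 95957163 to 96005940, minus strand) had 2, 1, 6, 2, 2, 6, 1 and 0 counts in p95HER2 tumours 1 to 8 and at most 1 in any EV tumour. Its sums of 20 counts in p95HER2 and 7 in EV tumours gave a ratio of 3.86 (1.57 to 10.8), which p95HER2 3 and 6 carried with 6 counts each. These intervals cover counting error only, not the spread between tumours.

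Lin28b (ENSMUSG00000063804, chromosome 10, 45376620 to 45486395, minus strand), the gene of a let-7 inhibitor, was scarce in both groups. It had 17, 9, 17, 21, 24, 15, 27 and 23 counts in p95HER2 tumours 1 to 8, and 9, 12, 11, 11, 8, 6, 12, 14, 25 and 0 in EV tumours 1 to 10. The groups overlapped, because EV 9 at 0.681 CPM exceeded 6 of the 8 p95HER2 tumours, and EV 10 had no count, which allows up to 0.0812 CPM (3 counts). Lin28b averaged 0.564 ± 0.169 CPM in p95HER2 tumours (SD, n = 8) and 0.294 ± 0.174 CPM in EV tumours (SD, n = 10), a log2 fold change of 0.93 (SE 0.35). Lin28a (ENSMUSG00000050966, chromosome 4, 134003330 to 134018841, minus strand) had 1 count over all p95HER2 tumours and 2 over all EV tumours, a ratio of 0.676 (0.0115 to 12.99), so no difference was detectable at this depth.

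Per kilobase of annotated exon (RPKM), the order of the 7 genes differed between the groups through Hmga2. In p95HER2 tumours Hmga1 came first at 28.4 ± 10.2 RPKM, then Hmga2 at 3.69 ± 2.15 and Igf2bp2 at 1.38 ± 0.357 (SD, n = 8 each). Next were Lin28b at 0.0622 ± 0.0186, Igf2bp3 at 0.0223 ± 0.00958, Igf2bp1 at 0.00762 ± 0.00692 and Lin28a at 0.000915 ± 0.00259 RPKM. In EV tumours Hmga1 also led at 16.3 ± 2.01 RPKM, but Igf2bp2 at 0.605 ± 0.122 came before Hmga2 at 0.0531 ± 0.0325 (SD, n = 10 each). Hmga2 was there followed by Lin28b at 0.0325 ± 0.0192, Igf2bp3 at 0.0300 ± 0.00707, Igf2bp1 at 0.00195 ± 0.00135 and Lin28a at 0.00135 ± 0.00284 RPKM. In EV tumours Hmga2, Lin28b and Igf2bp3 lay within each other's range, as did Igf2bp1 and Lin28a. In p95HER2 tumours the ranges of Hmga1, Hmga2 and Igf2bp2 did not overlap, with 20.2 to 49.2, 2.23 to 8.26 and 1.08 to 1.99 RPKM.

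Hmga2 overlaps a gene on the opposite strand, 1700006J14Rik, that begins inside its last exon (chromosome 10, 120364157 to 120384336, plus strand). This antisense gene had 33, 8, 26, 40, 28, 80, 28 and 60 counts in p95HER2 tumours 1 to 8 and 0 to 4 in EV tumours. It was thus highest in p95HER2 6 and 8, as Hmga2 was, and was scarce where Hmga2 was scarce. Its 303 counts over the p95HER2 tumours stood beside 6752 for Hmga2, and its 13 over the EV tumours beside 132. The library kit keeps the strand, but whether counting used the strand is not stated, so reads where the 2 genes overlap cannot be told apart. Malsu1, which overlaps the end of Igf2bp3, had a log2 fold change of 0.0004 (SE 0.05). Igf2bp3 had too few counts for a parallel between them to show.

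The tumours that set the upper end were the same for several of these genes. Of the 8 p95HER2 tumours, 6 and 8 were the 2 highest for Hmga2, with 55.9 and 38.1 CPM against 15.1 to 21.5 CPM in the other 6. They were also the 2 highest for Hmga1, with 104.5 and 82.9 CPM against 42.8 to 54.2, and for Igf2bp2, with 13.8 and 14.7 CPM against 8.003 to 10.7. Erbb2 was highest in the same 2 tumours, at 185.8 CPM in p95HER2 6 and 230.9 in p95HER2 8, though p95HER2 4 came close with 180.4 CPM. Lin28b did not follow them: p95HER2 6 ranked 7 and p95HER2 8 ranked 3 of the 8. Without both tumours the log2 fold changes against EV were 5.60 for Hmga2, 0.50 for Hmga1, 0.98 for Igf2bp2 and 0.93 for Lin28b.

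Marker levels in these tumours, given as the mean of log2(CPM + 0.5) over each list, are set beside this. The epithelial level was 6.62 in p95HER2 6 and 6.91 in p95HER2 8, against 6.35 to 6.76 in the other 6 p95HER2 tumours. The T cell level was 1.78 and 1.61 in p95HER2 6 and 8, against 0.28 to 1.58 in the others, and the skeletal muscle level was 7.34 and 6.55, against 4.21 to 6.94. The fibroblast level was 6.74 and 6.42, against 5.95 to 6.51, and the proliferation level was 7.39 and 7.24, against 7.27 to 7.50. In bulk tumour, fewer cells of a type and less RNA per cell cannot be told apart. The part of the T cell, muscle and fibroblast levels in how far p95HER2 6 and 8 stood above the other tumours was not tested.

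Relations across tumours were computed within each group, which leaves out the contrast on which the genes were selected. Hmga2, Hmga1 and Igf2bp2 were each set against Erbb2, the epithelial level and the proliferation level, and against each other, in 24 relations with BH adjustment over all of them. Among the 8 p95HER2 tumours Hmga1 followed Hmga2 with Pearson's r = 0.986 (two-sided exact permutation p = 0.000694, adjusted p = 0.0167). Spearman's rho was 0.857 (exact permutation p = 0.0107, adjusted p = 0.187). Without p95HER2 6 and 8, r was 0.758 (exact permutation p = 0.0694, n = 6), so the relation kept its sign but rested on these tumours for its adjusted p. Among the 10 EV tumours r between Hmga2 and Hmga1 was 0.667 (permutation p = 0.0382, adjusted p = 0.115) and rho was 0.673 (permutation p = 0.0390, adjusted p = 0.187).

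Igf2bp2 had a positive r with each Hmga gene in p95HER2 tumours, but neither r passed after adjustment, and both rested on p95HER2 6 and 8. Its r was 0.842 with Hmga2 and 0.866 with Hmga1 (exact permutation, adjusted p = 0.106 for both), and rho was 0.452 with each (exact permutation, adjusted p = 0.535). Without p95HER2 6 and 8 these r values were -0.17 and 0.0362. Among EV tumours r was 0.472 between Igf2bp2 and Hmga2 (permutation, adjusted p = 0.329) and 0.268 between Igf2bp2 and Hmga1 (permutation, adjusted p = 0.597).

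**Figure D2:**
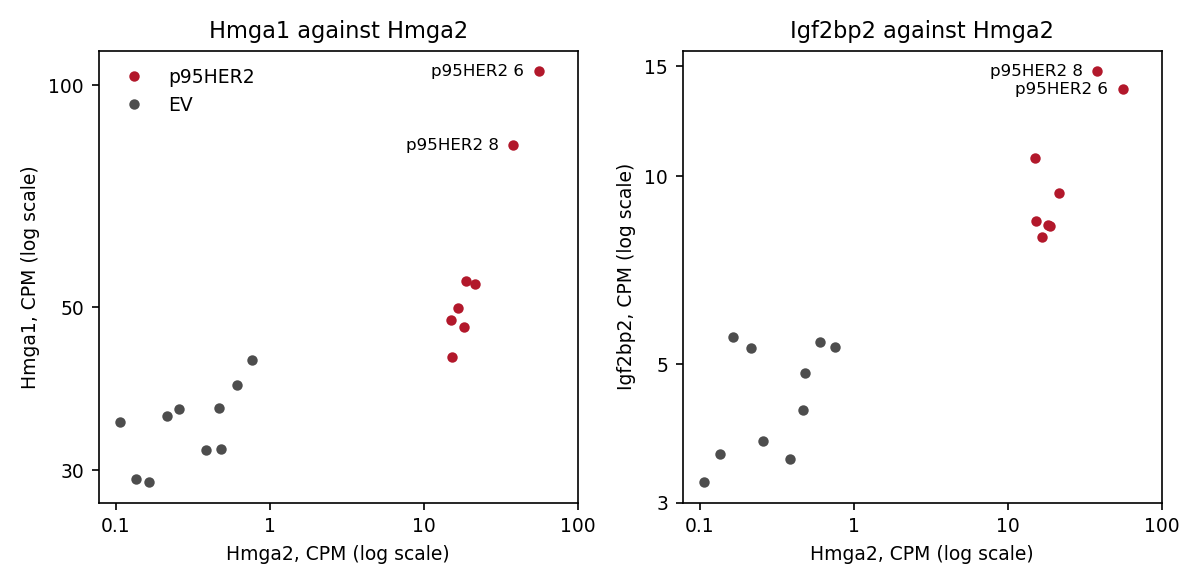
Hmga1 (left panel) and Igf2bp2 (right panel) against Hmga2, both axes in CPM on a log scale, one point per tumour, p95HER2 in red and EV in grey. The r of Hmga1 with Hmga2 is 0.986 in p95HER2 and 0.667 in EV tumours, while for Igf2bp2 the slope among p95HER2 tumours lies in p95HER2 6 and 8.

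Erbb2 showed the same dependence on those tumours. In p95HER2 tumours r with Erbb2 was 0.757 for Hmga2, 0.789 for Hmga1 and 0.772 for Igf2bp2 (exact permutation, adjusted p = 0.108, 0.106 and 0.106). The rho values were 0.762, 0.762 and 0.690 (exact permutation, adjusted p = 0.187, 0.187 and 0.278). Without p95HER2 6 and 8 the r values were 0.413, 0.596 and 0.0509. In EV tumours r with Erbb2 was 0.0591 for Hmga2, -0.08 for Hmga1 and -0.20 for Igf2bp2 (permutation, adjusted p = 0.907, 0.907 and 0.723).

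The 28 Hmga2 reads of EV 1, the highest EV tumour for both Hmga2 and Hmga1, came with the highest epithelial level. Among the 10 EV tumours Hmga2 followed the epithelial marker level with r = 0.793 (permutation p = 0.00273, adjusted p = 0.0328) and rho = 0.721 (permutation p = 0.0233, adjusted p = 0.187). Hmga2 had only 4 to 28 counts per EV library, or 0.106 to 0.762 CPM, near the 0.5 CPM added before the logarithm. Counting error therefore enters every r of Hmga2 in EV tumours. Without EV 1 and EV 4, r was 0.555 (permutation p = 0.161, n = 8), so the relation no longer passed. With 1 tumour left out the adjusted p also missed the threshold without EV 1, 2, 3, 4, 6, 8 or 9, with r from 0.681 to 0.892 over all such omissions. The epithelial level of EV 1 was 7.12, against 6.27 to 6.71 in the other 9 EV tumours. EV 1 also had the lowest skeletal muscle level, 2.70 against 6.38 to 8.37, and the highest adipocyte level, 3.47 against 1.40 to 3.12. In p95HER2 tumours r between Hmga2 and the epithelial level was 0.491 (exact permutation, adjusted p = 0.382).

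Over all 17123 genes tested edgeR called 5.73% higher and 4.45% lower, DESeq2 called 2367, and 4502 had an unadjusted p under 0.05. Between the groups the epithelial level was 6.58 ± 0.18 in p95HER2 and 6.58 ± 0.23 in EV tumours (SD), with 1 of 12 markers higher (Krt7) and 1 lower (Krt19). The proliferation level was 7.36 ± 0.08 in p95HER2 and 7.39 ± 0.09 in EV tumours, with 0 of 24 markers higher and 3 lower. Macrophage markers were called lower in 12 of 20 cases and higher in 1, with levels of 4.13 to 4.97 in p95HER2 and 4.55 to 5.62 in EV tumours. T cell markers were called lower in 3 of 16 cases by edgeR and 8 by DESeq2, 15 of 16 had a negative log2 fold change, and the median was -1.07. Adipocyte markers were called lower in 6 of 8 cases. Of 16 fibroblast markers 2 were higher and 1 lower. Of 15 skeletal muscle markers edgeR and DESeq2 called 0 each, with 6 at an unadjusted p under 0.05, all 15 negative and a median of -1.11. Of 14 endothelial markers edgeR called 0 and DESeq2 called 2, with 2 at an unadjusted p under 0.05. With the mean macrophage and T cell level as a covariate the log2 fold change was 6.49 for Hmga2, 0.91 for Hmga1, 1.27 for Igf2bp2 and 1.27 for Lin28b. With the epithelial level as a covariate it was 6.18, 0.79, 1.18 and 0.94 in the same order.

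The genes whose pattern was most like each of the 3 were ranked by Pearson's r after removal of the group means, over 18 tumours and 12082 genes. For Hmga2 the first was Hmga1 (r = 0.910), and for Hmga1 it was Hmga2, so over both groups together these genes were each other's nearest match. Hmga2 reached the minimum level for this ranking, a mean log2 CPM of 1, through the p95HER2 tumours alone. Over the p95HER2 tumours without 6 and 8, r between Hmga2 and Hmga1 was 0.758. Next for Hmga2 were Inf2, an actin-regulating formin (r = 0.894), and Cavin2, a component of caveolae (r = 0.891). Over the EV tumours alone r with Hmga2 was 0.898 for Inf2, 0.669 for Cavin2 and 0.667 for Hmga1, so Hmga1 did not come first there. Next for Hmga1 were Foxj1, a regulator of motile cilia (r = 0.891), and Dynap (r = 0.889). For Igf2bp2 the nearest were the receptor gene Nrp2 (r = 0.787), the cytokine gene Clcf1 (r = 0.771) and the histone gene Hist1h2bc (r = 0.769). Hmga2 ranked 23 and Hmga1 ranked 58 for Igf2bp2. These tumours share p95HER2 6 and 8: over the other 6 p95HER2 tumours r with Hmga2 was 0.741 for Inf2 and 0.305 for Cavin2. With Hmga1 it was 0.542 for Foxj1 and 0.615 for Dynap. With Igf2bp2 it was 0.539 for Nrp2, 0.272 for Hist1h2bc and -0.15 for Clcf1, which had r = 0.854 over all 8.

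Some of these nearest genes changed with p95HER2 and others gave no call. Dynap rose most, at 7.89 ± 5.02 CPM in p95HER2 and 0.0379 ± 0.0631 CPM in EV tumours (log2 fold change 7.57, edgeR BH-adjusted p = 5.27e-08), so it reached the minimum level for this ranking through the p95HER2 tumours alone. Inf2 rose, at 35.7 ± 8.38 CPM in p95HER2 and 26.1 ± 3.68 CPM in EV tumours (log2 fold change 0.45, edgeR BH-adjusted p = 0.0174), a call that was lost without p95HER2 6 and 8 together (edgeR BH-adjusted p = 0.0541). Nrp2 rose by 0.62 on the log2 scale and Clcf1 by 1.24, while Hist1h2bc fell to 9.22 ± 2.36 CPM in p95HER2, against 15.04 ± 2.93 CPM in EV tumours. Cavin2 had 21.1 ± 5.75 CPM in p95HER2 and 18.8 ± 2.16 CPM in EV tumours (edgeR BH-adjusted p = 0.390). Foxj1 had 2.68 ± 1.32 CPM in p95HER2 and 2.55 ± 0.578 CPM in EV tumours (edgeR BH-adjusted p = 0.867). A pattern like that of the Hmga genes among the tumours was thus found in genes with and without a call between the groups.

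Calls among other known let-7 targets went in both directions. Of 46 tested, 3 rose and 1 fell, where 5.73% and 4.45% of all genes tested did. At an unadjusted p under 0.05 there were 19 of the 46, against 4502 of 17123 over all genes, and DESeq2 called 8, against 2367. Of the 46, 22 had a positive and 24 a negative log2 fold change, and the median was -0.02, beside a median of -0.01 over all genes tested. Prtg, a membrane protein of the early embryo, rose to 5.01 ± 0.850 CPM in p95HER2 tumours, against 2.79 ± 0.729 CPM in EV tumours, a log2 fold change of 0.85 with SE 0.15 (edgeR BH-adjusted p = 0.00152). Galnt1, an enzyme of protein O-glycosylation, rose by 0.20 and the imprinted zinc finger gene Plagl1 by 0.35 on the log2 scale. Tgfbr1, a TGF-beta receptor, fell to 41.2 ± 2.31 CPM in p95HER2, against 52.5 ± 7.47 CPM in EV tumours (log2 fold change -0.35, edgeR BH-adjusted p = 0.00581). Cell-cycle genes of this list gave no call: Ccnd1 had a log2 fold change of -0.15, Cdk6 of -0.09, Myc of -0.18 and Ccnd2 of -0.61 (SE 0.19, edgeR BH-adjusted p = 0.0512). Others of this kind went both ways, with 0.11 for Cdc25a, 0.02 for E2f5, -0.12 for Cdc34 and -0.03 for E2f6. Trim71, another classical let-7 target of the embryo, had 0 counts in p95HER2 and 2 in EV tumours.

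The same comparison can be made over every gene by the number of 8mers in its 3′ UTR, without the 7 oncofetal genes. Genes with at least 2 numbered 21, of which 3 rose and 1 fell, with a median log2 fold change of -0.02. Genes with 1 numbered 488, of which 37 rose and 24 fell (7.58% and 4.92%), with a median of -0.02. Genes with none numbered 13596, of which 895 rose and 694 fell (6.58% and 5.10%), with a median of -0.01. The 4 called genes with at least 2 sites were Zc3hav1l (log2 fold change 0.28), Fignl2 (0.25) and Stx17 (0.18), which rose, and Ptafr (-0.70), which fell. The call of Zc3hav1l was lost without p95HER2 1, 2 or 4 and that of Ptafr without p95HER2 1 or 2 or EV 5 or 7 (edgeR BH-adjusted p up to 0.0592 and 0.0597). Those of Fignl2 and Stx17 were lost without any 1 of 14 and 10 tumours (edgeR BH-adjusted p up to 0.0975 and 0.0914). The UTRs were longer in the classes with sites, with a median of 4453 bases for at least 2, 2336.5 for 1 and 1119.5 for none.

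**Figure D3:**
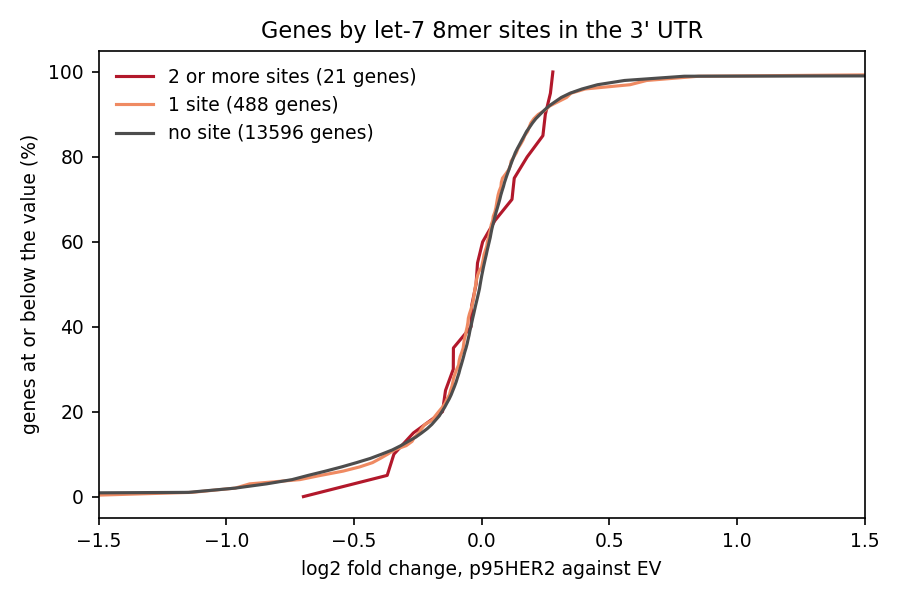
Cumulative share of genes (%) by log2 fold change of p95HER2 against EV, for genes with 2 or more (red), 1 (orange) or no (grey) let-7 8mer in the 3′ UTR, the 7 oncofetal genes left out. The curves cross near 0, where the medians are -0.02, -0.02 and -0.01.

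The machinery that makes and destroys let-7 also gave calls in both directions. Of 23 genes tested, 2 rose and 1 fell, where 5.73% and 4.45% of all genes did, with a median log2 fold change of 0.01. Tnrc6c, a scaffold of the silencing complex, rose to 151.8 ± 10.7 CPM in p95HER2, against 128.0 ± 11.5 CPM in EV tumours (edgeR BH-adjusted p = 0.00704). Dis3l2, the exonuclease that degrades uridylated pre-let-7, rose by 0.18 on the log2 scale (edgeR BH-adjusted p = 0.0303), and the call was lost without p95HER2 1, 6 or 7 (edgeR BH-adjusted p up to 0.0644). Trim25, a cofactor of Lin28a in pre-let-7 uridylation, fell by 0.20 (edgeR BH-adjusted p = 0.0490), and the call was lost without any 1 of 14 of the 18 tumours (edgeR BH-adjusted p up to 0.104). Dicer1, Drosha, Tut4 and Tut7 gave no call, with log2 fold changes of 0.02, -0.07, 0.02 and -0.02.

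The other oncofetal and imprinted growth genes gave calls in both directions. Of 18 tested, 3 rose and 1 fell, where 5.73% and 4.45% of all genes did, and the median was -0.21. Besides Plagl1, the rises were those of the Igf2 receptor gene Igf2r (log2 fold change 0.14, edgeR BH-adjusted p = 0.0263) and of Tpbg, the 5T4 oncofetal antigen (0.21, edgeR BH-adjusted p = 0.0439). The call of Igf2r was lost without p95HER2 1 or 2 (edgeR BH-adjusted p up to 0.0586), and that of Tpbg without any 1 of 12 tumours (up to 0.0802). Meg3, an imprinted non-coding RNA, fell to 4.53 ± 2.21 CPM in p95HER2, against 8.16 ± 2.02 CPM in EV tumours (edgeR BH-adjusted p = 0.0340), a call lost without any 1 of 11 tumours (edgeR BH-adjusted p up to 0.0708). The imprinted H19 had a log2 fold change of -0.27 (SE 0.39). Igf2, Sall4 and Afp were below the filter, with 44, 3 and 10 counts in p95HER2 and 98, 10 and 18 in EV tumours.

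In the IGF axis, which the Igf2bp proteins are named for, 2 of 6 tested genes of binding proteins rose, and Igf1, the one ligand tested, gave no call. Of 13 tested genes 3 rose and 1 fell, where 5.73% and 4.45% of all genes did, with a median of -0.07. Igfbp4 rose to 99.7 ± 21.7 CPM in p95HER2, against 58.2 ± 16.7 CPM in EV tumours, a log2 fold change of 0.78 with SE 0.17 (edgeR BH-adjusted p = 0.00843). Igfbp2 rose to 371.6 ± 70.1 CPM in p95HER2, against 213.8 ± 70.5 CPM in EV tumours, a log2 fold change of 0.80 with SE 0.20 (edgeR BH-adjusted p = 0.0168) and a call lost without p95HER2 6 and 8 together (edgeR BH-adjusted p = 0.0515). Pappa, the protease that cleaves Igfbp4, fell by 0.66 on the log2 scale (edgeR BH-adjusted p = 0.0288), a call lost without p95HER2 2, 4 or 5 or EV 2 (edgeR BH-adjusted p up to 0.0596). Igf1 had 10.6 CPM in p95HER2 and 12.8 CPM in EV tumours and Igf1r had 27.2 CPM in p95HER2 and 24.8 CPM in EV tumours, and neither was called.

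Among 11 other high-mobility-group genes tested, Hmgxb3 rose (log2 fold change 0.17, edgeR BH-adjusted p = 0.0100) and Hmgb2 fell (-0.23, edgeR BH-adjusted p = 0.0122), with a median of -0.07. Over all genes tested, 5.73% rose and 4.45% fell. Hmgb1, the most abundant of the 11, had 1315.7 CPM in p95HER2 and 1419.8 CPM in EV tumours without a call. The Igf2bp proteins also read the m6A mark on mRNA, and none of the 22 genes of the m6A writers, erasers and other readers was called by edgeR. At an unadjusted p under 0.05 there were 2, against 4502 of 17123 over all genes, and DESeq2 called 0, against 2367. The log2 fold changes of the 22 genes ran from -0.13 to 0.09.

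**Figure D4:**
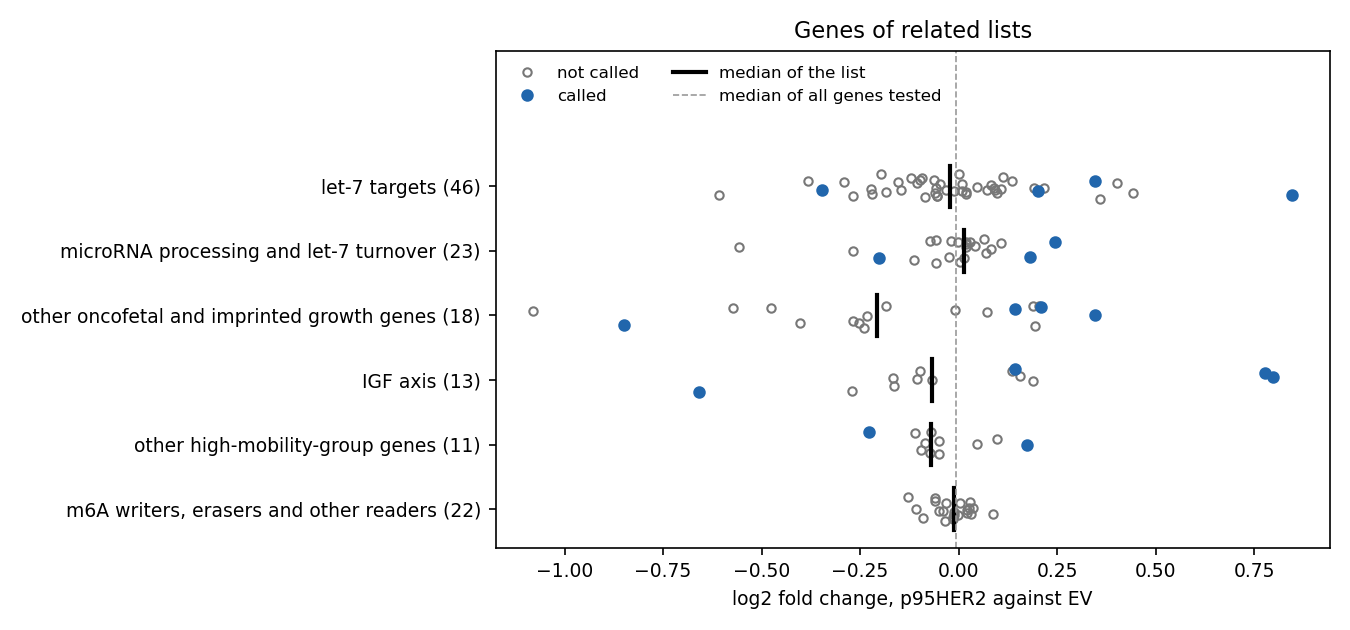
Log2 fold change of p95HER2 against EV for every tested gene of 6 related lists (number tested in brackets); filled points were called, open points were not, bars are list medians and the dashed line is the median of all genes. The let-7 targets, processing genes and m6A genes centre near 0, with 4, 3 and 0 called genes.

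Fewer genes were called with an immune covariate, whose macrophage part averaged 4.63 in p95HER2 and 5.18 in EV tumours, so the covariate is itself related to the group. With the macrophage and T cell level as a covariate 268 genes were called higher and 104 lower over the whole table, against 981 and 762 without it, and 5 of the 37 called genes that the naming rule took outside the 7 kept their call. These were Erbb2, Dynap, Nrp2, Clcf1 and Tmem176a, so every gene that the rule took from the 6 related lists lost its call. All 15 of these genes kept the sign of their log2 fold change, which was smaller in size for 12 and larger for 3, and the SE was larger for all 15. Prtg had 0.60 (SE 0.17, edgeR BH-adjusted p = 0.0735) with the covariate and Igfbp4 had 0.85 (SE 0.23, edgeR BH-adjusted p = 0.0692).

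None of the neighbours of Hmga2 that passed the filter was called; the overlapping 1700006J14Rik, described above, was below it. Within 500 kb 7 neighbours were tested, edgeR called 0, and their log2 fold changes ran from -0.09 to 0.15. At an unadjusted p under 0.05 there was 1, and DESeq2 called 1, against 4502 and 2367 of 17123 over all genes. The nearest of the 7, Llph, had 45.3 ± 2.63 CPM in p95HER2 and 44.1 ± 4.79 CPM in EV tumours. The let-7i locus lies on the same chromosome, 2.509 Mb away. Lin28b had 5 tested neighbours, of which edgeR called 0, DESeq2 called 0 and 0 had an unadjusted p under 0.05.

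Around Hmga1, 2 of 18 neighbours rose and none fell: Itpr3, an IP3 receptor, by 0.25 (edgeR BH-adjusted p = 0.00797), and AI413582, which overlaps the end of Hmga1 on the other strand, by 0.25 (edgeR BH-adjusted p = 0.0308). The call of AI413582 was lost without p95HER2 6, EV 5 or EV 6 (edgeR BH-adjusted p up to 0.0532), and reads at the overlap cannot be assigned with certainty. Around Igf2bp2, 1 of 13 fell: Ehhadh, a peroxisomal enzyme gene, at 0.244 ± 0.110 CPM in p95HER2 and 0.469 ± 0.167 CPM in EV tumours, a call lost without any 1 of 9 tumours (edgeR BH-adjusted p up to 0.0833). Around Igf2bp1, 3 of 22 fell, namely Hoxb4 (-0.64), the T cell adaptor gene Skap1 (-1.33) and Spop (-0.25). Beside the counts around these 3 genes, 5.73% of all genes tested were called higher and 4.45% lower. The call of Skap1 was lost without any 1 of 5 tumours (edgeR BH-adjusted p up to 0.0620).

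Igf2bp3 lies in a region where 4 of 18 neighbours rose and 6 fell, against 5.73% and 4.45% of all genes tested. Gpnmb, a gene of macrophages and other lysosome-rich cells, was the nearest called gene, at 14.3 kb, and fell to 9.90 ± 2.13 CPM in p95HER2, against 18.995 ± 9.62 CPM in EV tumours. Tmem176a rose by 0.45 and Tmem176b by 0.30 on the log2 scale. Among further genes, picked here with their values known, Repin1 and Gimap9 rose and 5 Gimap genes fell, and reads shared within the Gimap family are uncertain. Around Lin28a, 2 of 31 rose (Zdhhc18 and Pafah2, both by 0.16) and 2 fell, among them Cep85 by 0.25. The call of Pafah2 was lost without p95HER2 1 (edgeR BH-adjusted p = 0.0524) and that of Zdhhc18 without any 1 of 7 tumours (edgeR BH-adjusted p up to 0.0608).

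**Figure D5:**
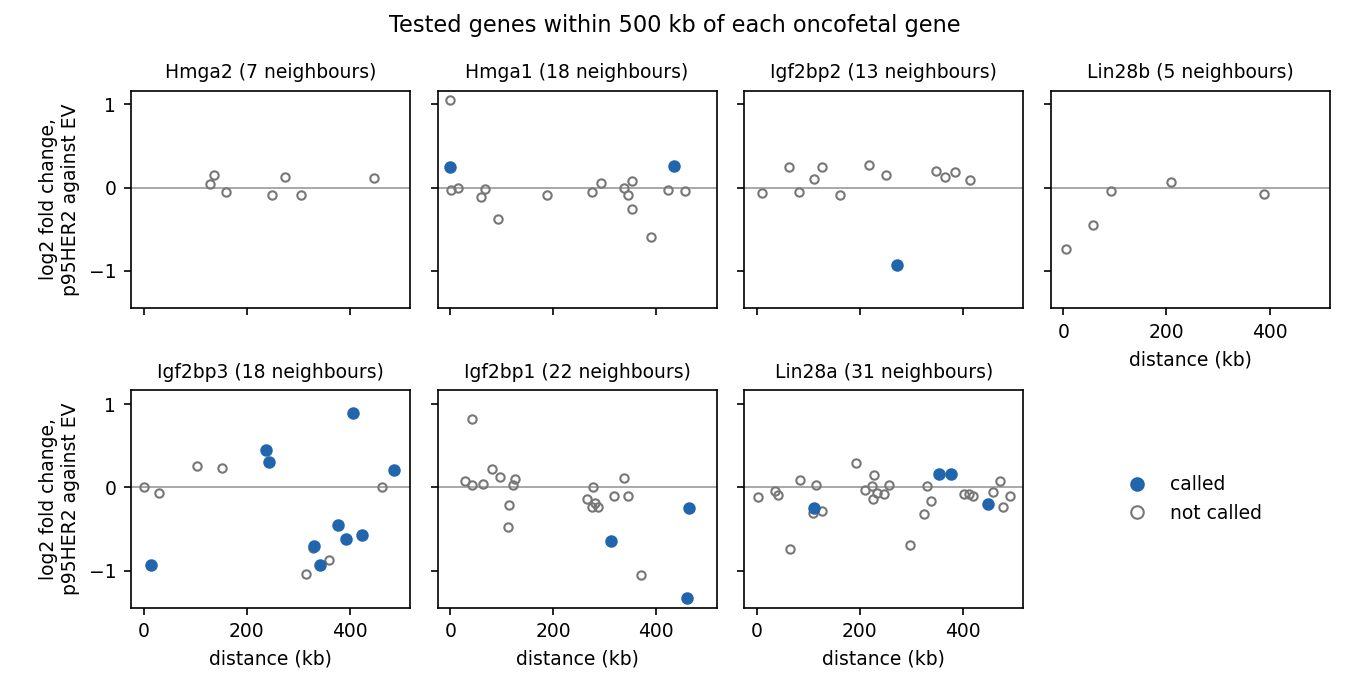
Log2 fold change of p95HER2 against EV for tested genes within 500 kb of each oncofetal gene, by distance in kb between gene bodies; filled points were called and open points were not. The 7 neighbours of Hmga2 lie between -0.09 and 0.15, far below the 6.11 of Hmga2 itself, which is not drawn.

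The bases before the start sites of Hmga2 and Igf2bp2 are shown as examples of genes that were higher in p95HER2 tumours. Hmga1 was also higher, and its bases are not printed. The stretches shown are RefSeq sequences (GRCm38.p6), 250 bases that end at the start, on the strand of the gene, and capitals mark the GC box GGGCGG on either strand.
Hmga2 upstream region, chr10:120476470-120476719, minus strand: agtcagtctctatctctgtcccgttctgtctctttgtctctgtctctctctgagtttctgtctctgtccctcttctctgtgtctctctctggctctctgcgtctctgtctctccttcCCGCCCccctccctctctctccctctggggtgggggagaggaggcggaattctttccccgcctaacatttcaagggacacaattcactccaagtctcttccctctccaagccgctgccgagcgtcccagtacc
Igf2bp2 upstream region, chr16:22163300-22163549, minus strand: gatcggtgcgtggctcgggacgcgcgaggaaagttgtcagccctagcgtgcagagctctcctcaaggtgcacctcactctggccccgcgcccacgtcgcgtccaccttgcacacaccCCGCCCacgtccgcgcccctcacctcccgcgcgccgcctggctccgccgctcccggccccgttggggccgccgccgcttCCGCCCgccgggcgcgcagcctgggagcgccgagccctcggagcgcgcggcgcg

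Over 300 bases, 250 before and 50 after the start, the GC content was 57.7% for Hmga2 and 76.7% for Igf2bp2, beside a median of 52.7% over 32851 RefSeq promoters. Hmga2 held 12 CpG dinucleotides and Igf2bp2 47, where the median was 7. The motifs searched on both strands were the AP-1 site TGANTCA, the E-box CACGTG, the CCAAT box CCAAT, the GC box and the TATA motif TATAAA. Neither promoter held an AP-1 site, an E-box, a CCAAT box or a TATA motif, which 7.81%, 7.15%, 37.4% and 13.6% of all promoters held. The GC box occurred 1 time for Hmga2 and 2 times for Igf2bp2, and in 35.7% of all promoters. For Hmga1 the GC content was 74.0% and 72.3% at its alternative starts, with 40 and 38 CpG dinucleotides and 4 GC boxes each. A motif absent from this window says nothing about its factor.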

How the data were processed

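Poly(A)-enriched, directional RNA-seq of 18 PB2 tumours was used, 8 p95HER2 and 10 EV. The table the authors deposited holds raw counts for each Ensembl gene, unnormalized, 1 column per tumour. STAR 2.5, HTSeq 0.6.1 and build mm10 are named in the submitters' processing notes. Neither the strand option nor the annotation release is stated in the labels. Tumours carry numbers in accession order, which serve as names.

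Counts were analysed with edgeR 4.0.16 in R 4.3.3: filterByExpr (minimum count 10, minimum total 15), TMM scaling, a robust quasi-likelihood F-test over all 18 tumours, and BH adjustment over 17123 genes. Library totals were 32686558 to 38464541 counts. DESeq2 1.42.0 was an alternative. Other alternatives were scaling by RLE or by totals alone, omission of the filter, a filter at 1 CPM in 8 tumours, the macrophage and T cell or the epithelial level as a covariate, another pseudocount (2), the 7mer, and each tumour left out in turn. Added after seeing the data were the omission of p95HER2 6 and 8 together and a minimum mean log2 CPM of 1 for the site classes. The tests were tested on simulated data.

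RPKM divides CPM by the union of annotated exons in GENCODE M21, which held 54495 of the 54532 identifiers. Coordinates are 1-based. Relations used log2(CPM + 0.5), with exact permutation for 8 tumours and 100000 resamples for 10 (numpy 2.4.6, scipy 1.17.1). The 7 genes and all lists were chosen with earlier results of these data known. The genes named were the 7, up to 4 called genes of smallest adjusted p per related list and among genes with at least 2 let-7 8mers, up to 3 nearest called neighbours within 500 kb, the 3 genes most like Hmga2, Hmga1 and Igf2bp2 among those with mean log2 CPM of 1 or more, and Erbb2. List genes without a call are named as examples outside that rule, after their values were seen. The tag number of p95HER2 1 lies apart from the rest, for a reason the labels do not give, and it was kept. Tag numbers ran from 1576 to 1960 in p95HER2 and from 1962 to 1974 in EV tumours. Group and tag order therefore cannot be told apart. The closest pair of libraries differed by more than sampling noise, so no pair was treated as a single library deposited again. That does not show that the tumours were independent.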

Additional observations from a re-analysis of the deposited data

Results flagged for a closer look

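In EV 7 Igf2bp3 stood apart from the other EV tumours, at 0.387 CPM (14 counts), while the next highest had 0.270 CPM (10 counts). In p95HER2 8 Lin28a had 0.0293 CPM, which is 1 count, and the other 7 p95HER2 tumours had none. Both rest on few reads. Among 16 groups examined, chance sets a tumour apart in this way in about 1 in 20 if values are normally distributed. For Igf2bp3, with 7 to 14 counts per EV library, that rate is only approximate, and counting error was not taken into account. That rate does not apply to Lin28a, where a single count in a group sets its tumour apart by construction.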

How the results depend on the processing

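No paired analysis was possible because the replicate numbers were given in accession order and pair no tumours. The log2 fold change of Hmga2, Hmga1, Igf2bp2 and Lin28b kept its sign in every setting in which it was computed. Hmga2, Hmga1 and Igf2bp2 were chosen because they rose, and their groups did not overlap, so nothing is read from their kept sign. With each tumour left out in turn the log2 fold change of these genes and Lin28b was 5.83 to 6.30, 0.64 to 0.86, 1.10 to 1.23 and 0.78 to 1.16. With the macrophage and T cell level as a covariate it was 1.27 for Lin28b. That covariate left 268 genes called higher and 104 lower, and 0 let-7 targets in either direction. Leaving out 1 tumour gave 489 to 1130 genes called lower, fewest without p95HER2 2. Let-7 targets called higher numbered 3 to 5 with 1 tumour left out and 5 with DESeq2. Those called lower numbered 1 to 3 with 1 tumour left out, 2 with library totals only or the filter at 1 CPM, 3 with DESeq2, and 4 with the epithelial covariate or without p95HER2 6 and 8 together. The r of Hmga1 with Hmga2 in p95HER2 tumours was 0.965 to 0.991 with 1 tumour left out, where its adjusted p missed the threshold without p95HER2 6 or p95HER2 8, and 0.758 without both. The r of Hmga2 with the epithelial level in EV tumours was 0.681 to 0.892 with 1 tumour left out, and it missed the threshold without EV 1, 2, 3, 4, 6, 8 or 9. The r of Igf2bp2 with Erbb2 in p95HER2 tumours was 0.568 to 0.933, past the threshold only without p95HER2 4. Without p95HER2 6 and 8 together the log2 fold change was -0.0464 for Cavin2 and -0.34 for Foxj1, which ran from -0.14 to 0.16 with 1 tumour left out, below 0 without p95HER2 6 or p95HER2 8. The cause was not tested in any of these. Of 37 called genes named outside the 7, 22 kept their call with each single tumour left out. Depth limits Igf2bp1, Igf2bp3 and Lin28a, where 3 counts correspond to 0.0777 to 0.0919 CPM.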
